A study of Mus musculus with 42 samples.

Results

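Transcript levels of 10 genes of glycolysis and the response to low oxygen were followed on each side of the heart field of E8.5i mouse embryos, when the heart tube bends. The genes were picked by name from the 56953 genes counted: *Slc2a1*, *Hk2*, *Aldoa*, *Pgk1*, *Eno1*, *Ldha*, *Pdk1*, *Vegfa*, *Bnip3* and *Slc16a3*. All 10 were found and passed the filter on low counts in every comparison. The embryos came from intercrosses of *Ccdc40* lnks/+ mice, a line whose background the study gives as C56Bl6J. *Ccdc40* encodes a component of motile cilia, which drive a leftward flow of fluid at the node of the early embryo. The 5 wild-type embryos (*Ccdc40*+/+, 4 males and 1 female) all looped rightward. Of the 16 homozygous *Ccdc40* lnks/lnks mutants, 11 looped rightward (6 males and 5 females) and 5 were labelled as inverted (3 males and 2 females). Each embryo gave 1 left and 1 right library, 42 in all, and no library pooled embryos. By the study's methods the head, back and heart tube had been cut away, so the tissue was mostly the heart field of the dorsal wall. The mutation is in the germline, so all tissues of a mutant carry it, and looping direction is an outcome within the mutants, not a treatment. A finer grouping of the mutants by laterality is not in the sample labels and was not used here. The study divides the rightward-looping mutants into situs solitus and heterotaxy, so their values here pool both.

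In glycolysis, glucose enters the cell through transporters such as SLC2A1 and is turned into pyruvate by a chain of enzymes that includes hexokinase 2 (*Hk2*), aldolase A (*Aldoa*), phosphoglycerate kinase 1 (*Pgk1*) and enolase 1 (*Eno1*). Lactate dehydrogenase A (*Ldha*) converts pyruvate to lactate, which leaves through the carrier encoded by *Slc16a3*. Pyruvate dehydrogenase kinase 1 (*Pdk1*) inhibits pyruvate dehydrogenase and so slows the use of pyruvate in the mitochondria. When oxygen is low, the factor HIF-1 is no longer degraded and binds short motifs near all of these genes, and near *Vegfa*, a growth factor for blood vessels, and *Bnip3*, a protein of mitochondrial clearance. The early embryo relies on glycolysis before the circulation starts, and heart muscle turns to oxidative metabolism later. In GRCm39 the genes, all protein-coding, are annotated as *Slc2a1* (ENSMUSG00000028645) at chr4:118965908-118996365, *Hk2* (ENSMUSG00000000628) at chr6:82699740-82751469, *Aldoa* (ENSMUSG00000030695) at chr7:126393822-126399923, *Pgk1* (ENSMUSG00000062070) at chrX:105230706-105247305, *Eno1* (ENSMUSG00000063524) at chr4:150321073-150337027, *Ldha* (ENSMUSG00000063229) at chr7:46490899-46505061, *Pdk1* (ENSMUSG00000006494) at chr2:71703488-71734202, *Vegfa* (ENSMUSG00000023951) at chr17:46327919-46343309, *Bnip3* (ENSMUSG00000078566) at chr7:138490690-138511253 and *Slc16a3* (ENSMUSG00000025161) at chr11:120838846-120851694.

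The deposited libraries held 36073684 to 62970327 counts (median 43458644). *Ccdc40* itself was at 15.2 to 26.5 CPM (counts scaled to the size of the library by the TMM method) in the wild-type libraries and at 8.83 to 14.8 CPM in the mutant libraries, with no overlap, so the genotype labels and the transcript went together in all 42. The labels do not say which embryos were littermates, so p-values over embryos measure the spread between these embryos only. Wild-type embryos 7_1 and 8_1 stood apart from all other embryos in *Eno1b*, a near-identical copy of *Eno1*, at 287.5 to 322.1 CPM in their 4 libraries against 22.9 to 40.5 CPM in the other 38. With both left out, edgeR called 0 of the 10 genes in any comparison that holds wild types, as with them.

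All of the genes except *Vegfa* ranked within the top 1468 of 29633 genes by median CPM, and *Eno1* was among the most abundant transcripts of all. To compare genes, CPM were divided by transcript length in kb. On that scale the medians over 42 libraries were 1579.9 for *Eno1*, 1313.0 for *Ldha* and 1148.0 for *Aldoa*, the 3 enzymes that led the order. Next came *Pgk1* at 303.7, *Slc2a1* at 150.8 and *Slc16a3* at 105.1 CPM per kb. *Bnip3* at 43.8, *Pdk1* at 40.3 and *Hk2* at 20.9 CPM per kb were lower, and *Vegfa* at 0.632 CPM per kb was last. Neighbours kept this order in 40 to 42 of the 42 libraries, except that *Bnip3* stood above *Pdk1* in 31 of 42, so that those 2 levels were not separated beyond their spread.

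Undivided by length, *Eno1* ranged from 3046.6 to 4476.2 CPM (median 3622.7), which made it number 3 of 29633 genes by median CPM. *Ldha* ranged from 1770.7 to 2819.2 CPM (rank 15) and *Aldoa* from 1516.7 to 2266.8 CPM (rank 22). *Slc2a1* ranged from 464.3 to 1217.6 CPM. Its highest library stood clear of the next, at 1022.3 CPM. *Pgk1* ranged from 466.2 to 729.1 CPM, *Slc16a3* from 391.5 to 689.9 CPM and *Pdk1* from 180.7 to 275.2 CPM. *Hk2* ranged from 136.7 to 223.2 CPM and *Bnip3* from 115.5 to 240.5 CPM. *Vegfa* was at 1.41 to 4.08 CPM, or 57 to 202 counts, and so was the least precisely counted of the 10. All 10 genes together took 0.875 to 1.29% of the library (median 0.972%). The highest levels of *Slc2a1*, *Aldoa*, *Pgk1*, *Eno1*, *Ldha* and *Slc16a3* were all in 1 library, the right field of wild-type embryo 10_1.

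**Figure D1:**
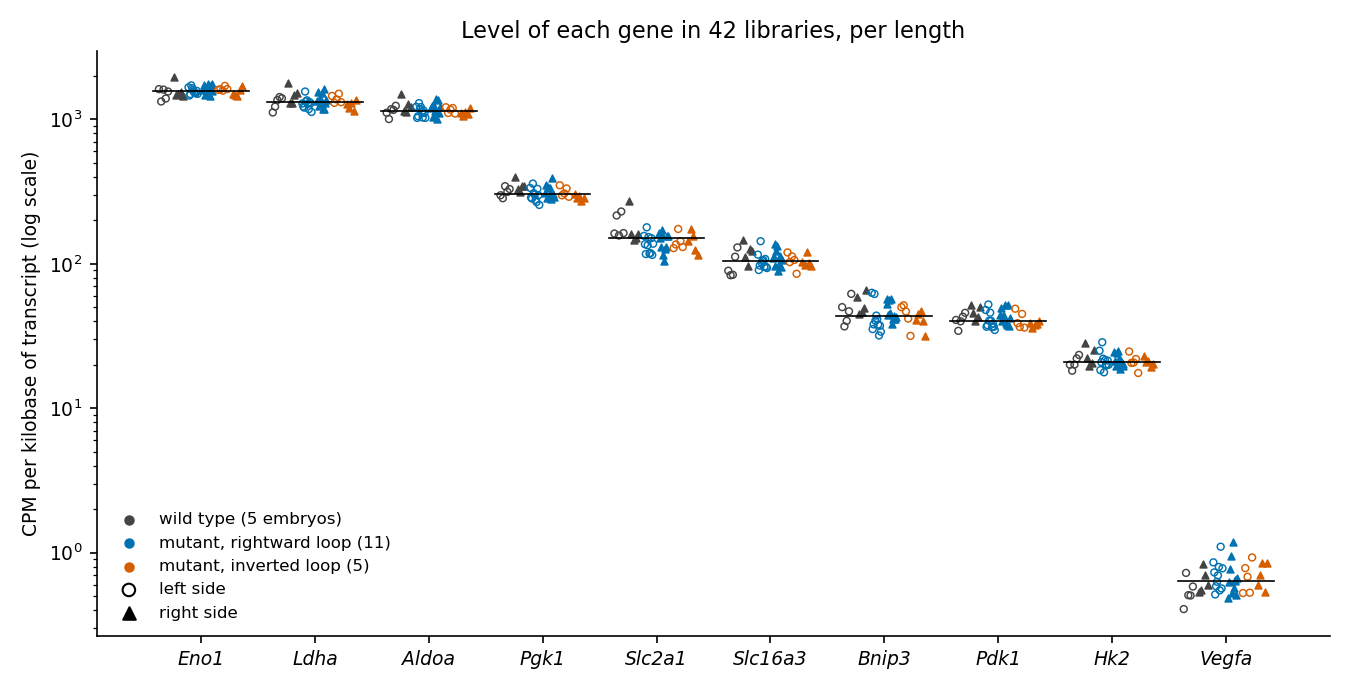
Level of each of the 10 genes in the 42 libraries, in CPM per kilobase of transcript on a log scale. Each symbol is 1 library (open circles left, triangles right, colour by group) and the line is the median of the 42, from 1579.9 for *Eno1* to 0.632 for *Vegfa*.

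HIF-1 is described as binding near these genes, but its binding was not measured here. The 250 bases before the start of 1 transcript of each gene, the one the annotation marks as canonical, were searched on both strands. The search was for ACGTG or GCGTG, the core letters of the hypoxia response element. The sequence CACGTG holds 2 overlapping matches, one on each strand. Windows are from GRCm39 with the starts of the GENCODE annotation. For *Hk2*, *Aldoa*, *Eno1*, *Ldha* and *Slc16a3* other transcripts start further upstream, so those windows lie partly or wholly inside the gene's annotated span. Windows are printed 5′ to 3′ on the gene's strand, with matches in capitals, for *Slc2a1*, *Pgk1*, *Ldha* and *Bnip3*, on whose values the comparisons turn, and *Vegfa*, which had no match and stood apart in level.
*Slc2a1* (chr4:118965658-118965907, plus strand): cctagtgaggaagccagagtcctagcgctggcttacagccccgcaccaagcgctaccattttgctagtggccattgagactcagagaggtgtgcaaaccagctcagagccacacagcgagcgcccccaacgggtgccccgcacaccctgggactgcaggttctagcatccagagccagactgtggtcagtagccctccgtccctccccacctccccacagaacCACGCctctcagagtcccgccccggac
*Pgk1* (chrX:105230456-105230705, plus strand): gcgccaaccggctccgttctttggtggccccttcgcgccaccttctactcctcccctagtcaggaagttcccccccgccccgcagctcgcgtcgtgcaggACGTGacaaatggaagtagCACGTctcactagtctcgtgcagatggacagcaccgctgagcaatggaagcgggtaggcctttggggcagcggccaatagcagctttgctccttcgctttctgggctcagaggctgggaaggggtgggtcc
*Ldha* (chr7:46495013-46495131, plus strand): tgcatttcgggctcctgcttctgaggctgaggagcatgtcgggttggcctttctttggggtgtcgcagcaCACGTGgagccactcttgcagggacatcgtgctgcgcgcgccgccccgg
*Bnip3* (chr7:138511254-138511503, minus strand): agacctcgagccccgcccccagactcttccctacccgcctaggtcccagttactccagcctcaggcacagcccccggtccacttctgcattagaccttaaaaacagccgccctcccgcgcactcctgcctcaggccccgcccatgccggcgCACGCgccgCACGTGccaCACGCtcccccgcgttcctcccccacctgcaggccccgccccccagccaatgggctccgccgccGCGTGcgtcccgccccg
*Vegfa* (chr17:46343310-46343559, minus strand): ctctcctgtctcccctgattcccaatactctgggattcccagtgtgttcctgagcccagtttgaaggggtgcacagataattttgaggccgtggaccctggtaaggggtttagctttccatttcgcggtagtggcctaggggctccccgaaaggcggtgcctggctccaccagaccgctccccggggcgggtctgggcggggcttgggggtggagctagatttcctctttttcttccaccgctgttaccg
The *Ldha* sequence is the part of its window that is free of annotated exons. Over the full windows *Ldha* had 6 matches, *Bnip3* 5, *Pgk1* and *Hk2* 2 each, and *Slc2a1*, *Aldoa*, *Eno1* and *Slc16a3* 1 each. No match was found for *Pdk1* and *Vegfa* in this window. Thus 8 of 10 windows held a match, against 41.3% of the windows of 21664 protein-coding genes, and 4 of 10 held at least 2, against 18.2%. The GC content of the 10 windows was 54.4 to 72.4%, against a median of 53.2% over all windows. The genes were picked from pathways known for such motifs, so a share above that of all genes is not separate evidence. A match describes the letters and is not evidence of binding.

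The first question was whether the genes differed between the right and left field of the same embryo. In wild types, none of the 10 genes was called by edgeR's quasi-likelihood test with the embryo as a block (adjusted p under 0.05), and neither was any other gene (0.0% of 23182 tested; 639 genes at an unadjusted p under 0.05 and 19 calls by DESeq2). The log2 right/left was above 0 for 9 of the 10, with a median of 0.16 against 0.002 over all genes, and every adjusted p was 1.0. Much of that median came with embryo 10_1. Without it, 9 of 10 were still above 0 and the median was 0.07, with *Ldha* at 0.05 (0.17 with it), *Aldoa* at 0.05 (0.12), *Pgk1* at 0.07 (0.14) and *Slc2a1* at -0.29. Without embryos 7_1 and 8_1 the median was 0.23 and *Slc2a1* was at 0.07. Markers of other tissues differed more between the sides of wild types, with 7 of 7 yolk sac visceral endoderm genes below 0 (median log2 -1.29) and 3 of 3 neural crest genes above 0 (median 0.65). None of these was called, the summed yolk sac level was lower on the right in 3 of 5 embryos, and their part in the members' values was not tested. *Slc16a3*, the lactate exporter, had the largest value at 0.28 (SE 0.11), and *Slc2a1* the lowest at -0.09 (SE 0.18). Without embryo 10_1 the value of *Slc16a3* was 0.17. The 95% intervals were widest for *Slc2a1* (-0.49 to 0.32) and *Vegfa* (-0.24 to 0.71) and narrower for genes such as *Eno1* (-0.09 to 0.23) and *Bnip3* (0.05 to 0.30).

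In rightward-looping mutants, again 0 of 10 genes were called, against 0.0263% of 22795 genes. The log2 right/left was above 0 for 9 of the 10 with a median of 0.07, against -0.00417 over all genes, and the 95% intervals spanned -0.4 to 0.32. *Bnip3* had the largest value, 0.18 (SE 0.06, edgeR adjusted p = 1.0). Its log2 right/left in single embryos was -0.15 at the lowest, 0.17 at the median and 0.58 at the highest, with 8 of 11 embryos above 0 (two-sided p = 0.0342 by exact sign flips over embryos, adjusted p = 0.375 over the 30 tests of 10 genes in 3 groups).

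In inverted-looping mutants, 0 of 10 genes were called, although 2.04% of 22960 genes were (395 higher on the right and 73 lower). Of the 10 values, 7 were below 0 at 2 decimals and the median was -0.06, against -0.00502 over all genes. *Pgk1*, the enzyme of the first ATP-yielding step, was at 638.2, 543.2, 559.7, 606.5 and 530.6 CPM in the left fields of embryos 10_3, 18_2, 2_7, 32_2 and 4_6. The right fields of the same embryos were at 555.0, 523.6, 539.3, 496.3 and 519.2 CPM. The left was higher in all 5 embryos, while the sets of left and right levels overlapped. The log2 right/left was -0.12 (SE 0.04, edgeR adjusted p = 0.261), and the exact sign-flip test gave p = 0.063, the smallest that 5 embryos allow. *Ldha* was at 2304.7, 2065.4, 2181.2, 2386.7 and 2086.2 CPM on the left of those embryos and at 2018.4, 1898.6, 2050.4, 1804.1 and 2154.1 CPM on the right. It was lower on the right in 4 of 5, with a log2 right/left of -0.14 (SE 0.06). Without embryo 32_2 both *Ldha* and *Pgk1* were at -0.08. *Slc2a1* and *Hk2* were both at 0.0, and *Slc16a3* at -0.01. Across the 10 genes the 95% intervals spanned -0.28 to 0.39.

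**Figure D2:**
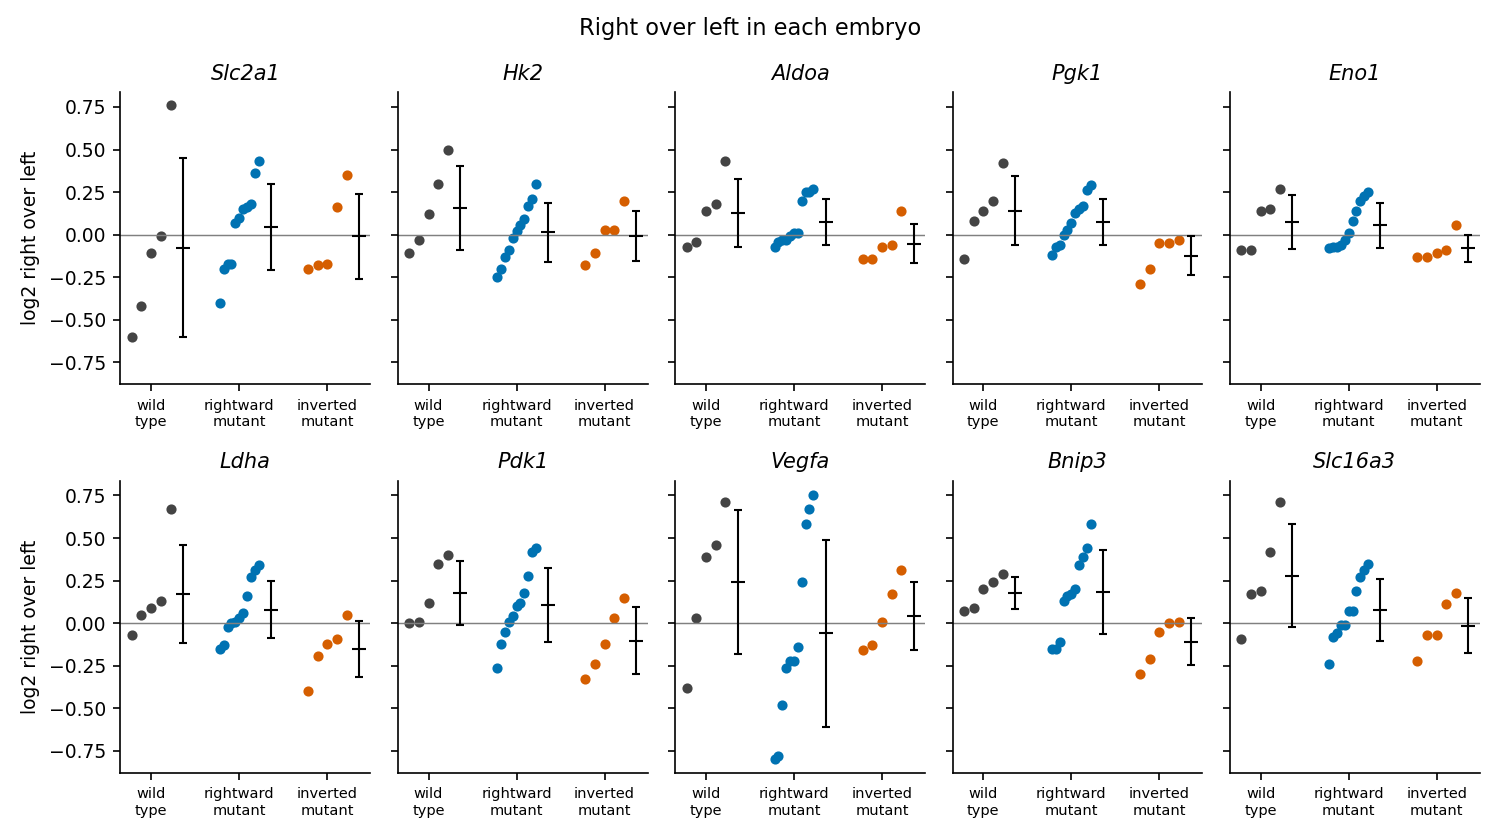
Log2 right over left of each gene in each of the 21 embryos, by group. Each point is 1 embryo, the bars beside them are the mean and SD of the group, and 0 is an equal level on both sides. For *Bnip3* all 5 wild types lie above 0 and no inverted-looping mutant lies above 0.01, while rightward-looping mutants spread from -0.15 to 0.58.

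The difference in right/left between groups was then tested itself. Between inverted-looping mutants and wild types 0 of 10 genes were called, against 0.513% of 26335 genes. Between inverted-looping and rightward-looping mutants 0 of 10 were called against 0.311%, and between rightward-looping mutants and wild types 0 of 10 against 0.0% (800 genes at an unadjusted p under 0.05, 0 by DESeq2). The difference was below 0 for 9 of the 10 genes in inverted-looping mutants relative to wild types (median log2 -0.23, against -0.0219 over all genes) and for 9 of 10 relative to rightward-looping mutants (median -0.13, against -0.0139). Relative to wild types, rightward-looping mutants had 8 of 10 below 0 (median -0.07, against -0.00855). That majority depended on wild-type embryo 10_1. Without it, 4 of 10 were below 0 and the median was 0.01, against 7 to 9 of 10 below 0 without any other embryo. For inverted-looping mutants relative to wild types, 9 of 10 were still below 0 without embryo 10_1 (median -0.17). The 2 comparisons of inverted-looping mutants share the inverted-looping embryos and are not separate evidence.

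*Bnip3* was the only one of the 10 genes whose right/left did not overlap between inverted-looping mutants and wild types, as was so for 2.06% of 26335 genes. In wild types it was at 182.7, 134.3, 146.7, 170.9 and 225.7 CPM in the left fields of embryos 10_1, 17_7, 22_4, 7_1 and 8_1, and at 215.7, 164.6, 168.0, 179.0 and 240.5 CPM in their right fields. In inverted-looping mutants it was at 182.8, 188.2, 170.6, 152.2 and 115.5 CPM in the left fields of embryos 10_3, 18_2, 2_7, 32_2 and 4_6, and at 148.5, 162.8, 170.9, 147.2 and 115.9 CPM in the right. The wild types were thus higher on the right in 5 of 5, and the inverted-looping mutants were level or lower. The log2 right/left was 0.07 to 0.29 in wild types and -0.30 to 0.01 in inverted-looping mutants, so that the groups did not overlap. The edgeR difference was -0.29 (SE 0.12, adjusted p = 0.281) from wild types and -0.29 (SE 0.10, adjusted p = 0.258) from rightward-looping mutants. An exact permutation of the embryos gave p = 0.00794 from wild types, the smallest that 5 against 5 allow, and p = 0.159 after adjustment over 30 tests.

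*Pgk1* and *Ldha* had differences of the same size that also did not pass. For *Pgk1* the log2 right/left in wild types was -0.14, 0.08, 0.14, 0.20 and 0.42, against -0.29, -0.20, -0.05, -0.05 and -0.03 in inverted-looping mutants. The groups overlapped through wild-type embryo 22_4, the lowest of its group, and the difference was -0.27 (SE 0.09, edgeR adjusted p = 0.176). Without that embryo it was -0.33 with an adjusted p of 0.042, the only setting under which a member's asymmetry was called. For *Ldha* the wild types gave -0.07, 0.05, 0.09, 0.13 and 0.67, and the inverted-looping mutants -0.40, -0.19, -0.12, -0.09 and 0.05. The difference was -0.33 (SE 0.12, edgeR adjusted p = 0.209), and -0.20 without embryo 10_1, which held the 0.67. Of the other genes, *Slc16a3* differed by -0.30, *Pdk1* by -0.28, *Vegfa* by -0.20, *Aldoa* by -0.19, *Hk2* by -0.16 and *Eno1* by -0.15 from wild types, and *Slc2a1* by 0.07. Without embryo 10_1 the difference of *Slc16a3* was -0.19 and that of *Aldoa* -0.11. In all, 6 of 30 exact permutation tests of group differences were under 0.05 before adjustment and 0 after it. The 6 were those of *Bnip3*, *Pgk1* and *Ldha* in the 2 comparisons that share the inverted-looping embryos. By edgeR the unadjusted p was under 0.05 for 6 of the 10 genes in the comparison with wild types, against 13.6% of all genes. In that with rightward-looping mutants it was so for 3 of 10, against 10.5%. After adjustment 0 of 10 passed in either, and the 10 genes are not independent of each other.

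**Figure D3:**
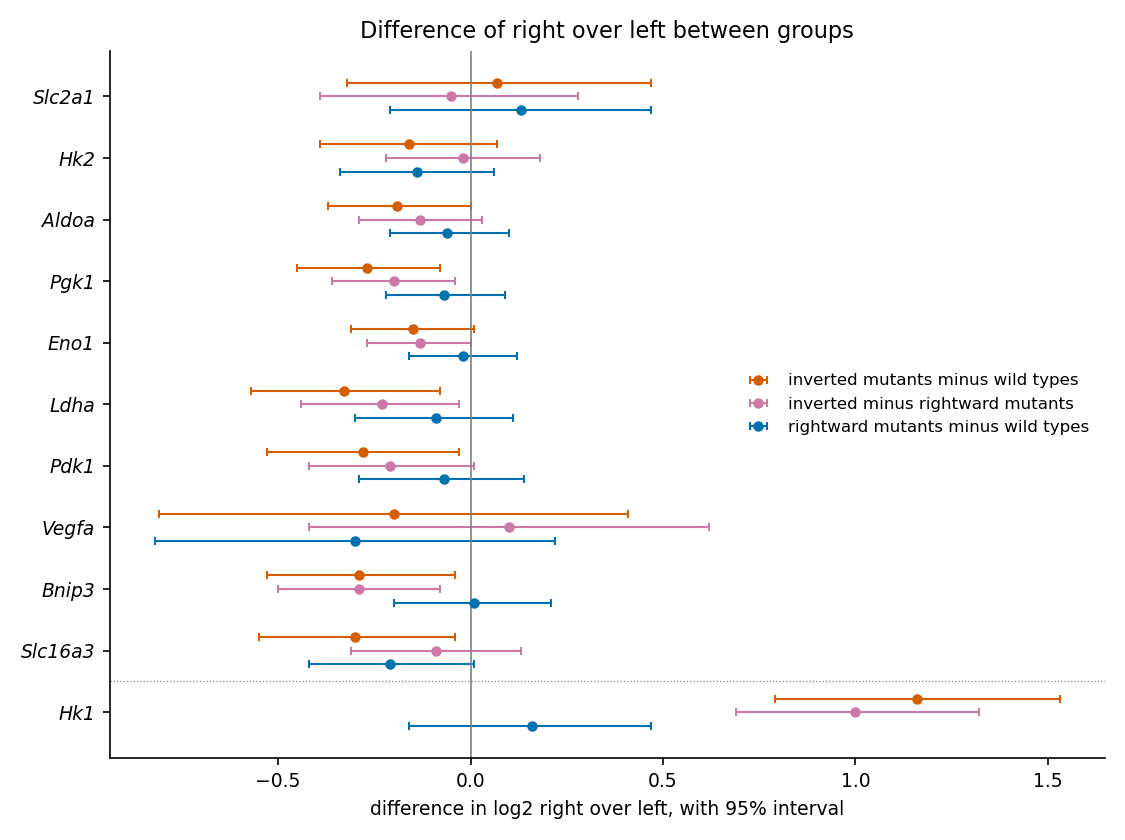
Difference in log2 right over left between groups for the 10 genes and, under the dotted line, for *Hk1*, with 95% intervals from edgeR. *Bnip3* lies at -0.29 in both comparisons of the inverted-looping mutants, none of the 10 genes passed the adjusted threshold, and *Hk1* passed it at 1.0 and 1.16.

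Counted per embryo, the right was higher for 1, 2, 2, 5 and 7 of the 10 genes in the 5 inverted-looping mutants. In wild types it was higher for 4, 6, 7, 8 and 10 genes, and in the 11 rightward-looping mutants for between 1 and 9. The 3 groups overlapped in this count.

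Markers of heart muscle ran mostly opposite to these ratios over embryos, as set out below. In inverted-looping mutants 6 of 8 heart tube muscle genes were called higher on the right, with log2 right/left from 0.88 to 1.12. Of the other 2, 1 was below 0. The 5 highest of the called genes were *Actc1*, *Myl4*, *Tnni1*, *Myh6* and *Tnnt2*, all of the contractile apparatus. The summed level of the 8 was 1228.2 to 2419.6 CPM on the left and 2304.0 to 4825.5 CPM on the right of inverted-looping mutants. In wild types it was 1779.9 to 4331.1 CPM on the left and 883.3 to 3554.0 CPM on the right, and none of the 8 was at 0 in any library. The muscle sum was higher on the right in 5 of 5 inverted-looping mutants (log2 0.62 to 1.43), 5 of 11 rightward-looping mutants (-1.83 to 1.36) and 3 of 5 wild types (-1.64 to 0.99). In bulk tissue, fewer cells of a type and less RNA per cell cannot be told apart.

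Across the 21 embryos the right/left of 9 of the 10 genes correlated negatively with that of the muscle sum, and for 6 of them the correlation passed adjustment over 120 pairs of a gene and a marker list. For *Ldha* Pearson's r was -0.82 (permutation p = 1e-05, the smallest that 100000 permutations can give, adjusted p = 0.000343) and Spearman's rho was -0.75 (permutation p = 0.00019, adjusted p = 0.00377). It was -0.72 without the 2 embryos farthest from the median muscle ratio and -0.69 within the 11 rightward-looping mutants. For *Pgk1* r was -0.78, and -0.66 within the rightward-looping mutants. *Pdk1* (-0.71), *Aldoa* (-0.68), *Eno1* (-0.62) and *Bnip3* (-0.61) also passed. *Hk2*, *Slc16a3*, *Slc2a1* and *Vegfa* did not, with r of -0.46, -0.38, -0.34 and 0.23. Both measures come from the same 2 libraries of an embryo. Wild-type embryo 10_1, which had the highest right/left of *Ldha* (0.67), also had the lowest muscle ratio of its group (-1.64).

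**Figure D4:**
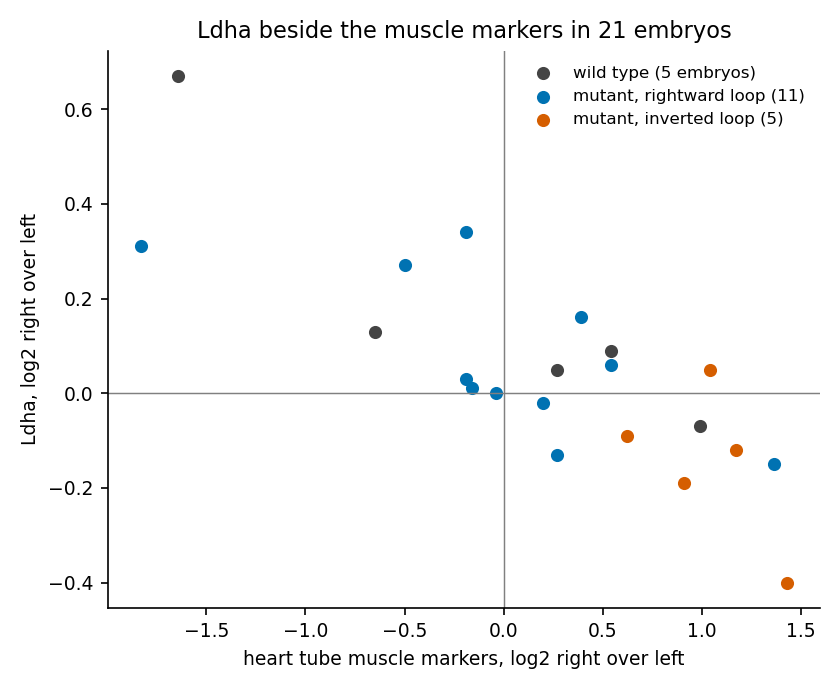
Log2 right over left of *Ldha* against that of the summed heart tube muscle markers in 21 embryos. Each point is 1 embryo, coloured by group. The points fall from upper left to lower right (r = -0.82 over all embryos and -0.69 over the rightward-looping mutants), and the 5 inverted-looping mutants lie at muscle ratios of 0.62 to 1.43.

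Other markers were called in inverted-looping mutants as well. Of the 5 sinus venosus genes *Shox2* (log2 right/left 1.09), *Hcn4* (0.76) and *Tbx5* (0.74) were higher on the right, and so were *Mef2c* (0.73) of 6 second heart field genes and *Fos* (0.95) and *Jun* (0.26) of the 6 immediate early genes tested. *Pax6*, 1 of 4 neural tube genes, was lower there (-2.02). Not all genes of the first 3 lists were higher: 1 sinus venosus, 2 second heart field and 1 immediate early gene were below 0, none of them called. The summed sinus venosus level was 67.7 to 106.2 CPM on the left and 110.9 to 157.1 CPM on the right, and the summed neural tube level 36.2 to 80.5 and 6.32 to 38.2 CPM. In the difference from wild types, *Tek* of the endothelium (0.90) and *Tcf15* of the paraxial mesoderm (-2.39) were called.

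Across embryos, other marker lists were correlated with the ratios of the 10 genes too. The median r over the 10 genes was -0.62 for muscle, -0.71 for foregut endoderm, -0.64 for sinus venosus and 0.67 for dividing cells. By Pearson's r, correlations of the same sign as muscle passed for 8 genes with foregut endoderm, 8 with immediate early genes, 7 with sinus venosus, 5 with second heart field, 4 with endothelium and 3 with yolk sac visceral endoderm. Positive correlations passed for 8 genes with the markers of dividing cells, 7 with neural tube, 4 with paraxial mesoderm and 1 with neural crest, and 0 passed with blood. By Spearman's rho as well, 7 of these passed for foregut endoderm, 3 for immediate early genes, 6 for sinus venosus, 3 for second heart field, 1 each for endothelium and yolk sac visceral endoderm, 7 for dividing cells, 5 for neural tube, 4 for paraxial mesoderm and 1 for neural crest. All 6 passed for muscle. Without the 2 farthest embryos, the weakest of the correlations that had passed was 0.43 in size for muscle, 0.45 for foregut endoderm, 0.10 for immediate early genes, 0.31 for sinus venosus, 0.25 for second heart field and for endothelium, 0.46 for yolk sac visceral endoderm, 0.32 for dividing cells, 0.21 for neural tube, 0.51 for paraxial mesoderm and 0.56 for neural crest. Within the 11 rightward-looping mutants the median r over the 10 genes was -0.57 for foregut endoderm, -0.48 for immediate early genes, -0.55 for sinus venosus, -0.42 for second heart field, 0.60 for dividing cells, 0.30 for neural tube, 0.70 for paraxial mesoderm and 0.18 for neural crest. For endothelium it was 0.14 and for yolk sac visceral endoderm -0.06, so that the negative relation with these 2 lists did not hold there. *Pgk1* with endothelium, for instance, had r = -0.64 over all embryos and 0.10 in the rightward-looping mutants. What part muscle, dividing cells or any other of these tissues has in the right/left of the 10 genes was not tested.

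Levels were next compared between groups within a side, with sex in the model. Among the 10 genes, *Slc2a1*, which encodes a glucose transporter, had the largest difference. On the left it was at 719.8, 960.1, 697.4, 1022.3 and 725.0 CPM in wild-type embryos 10_1, 17_7, 22_4, 7_1 and 8_1 (mean 824.9 ± 153.8, SD, n = 5). The left fields of rightward-looping mutants ran from 512.0 to 794.7 CPM (median 606.6, mean 612.2 ± 90.5, n = 11), and those of inverted-looping mutants from 570.8 to 774.1 CPM (mean 633.2 ± 82.7, n = 5). The upper ends of both mutant groups thus reached into the wild-type range. The log2 difference of rightward-looping mutants from wild types was -0.46 (SE 0.11), which edgeR did not call after adjustment over all genes (adjusted p = 0.523). DESeq2 called it, with the same log2 value and an adjusted p of 0.0168. No other member was called there by either tool. DESeq2 called 20 genes in this comparison, and edgeR called 6, or 0.0242% of 24838. In the same comparison 6 of 6 second heart field markers were above 0 (median log2 0.35) and 7 of 7 yolk sac visceral endoderm markers below 0 (median -0.37), with 0 called in either list. Their summed levels overlapped between the groups, and their part in the *Slc2a1* values was not tested. On the right, the difference was -0.31 (SE 0.14, edgeR adjusted p = 1.0) and -0.12 without embryo 10_1, whose right field held 1217.6 CPM against 644.8 to 717.8 CPM in the other wild types. *Slc2a3*, a related glucose carrier outside the 10 genes, had a median of 1677.4 CPM over all libraries. Between rightward-looping mutants and wild types it differed by -0.40 on the left (SE 0.10, edgeR adjusted p = 0.632) and by -0.08 on the right (SE 0.17).

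The remaining level comparisons called 0 of 10 genes. These were rightward-looping mutants over wild types on the right (0.0121% of 24859 genes called), inverted-looping over rightward-looping mutants on the left (0.0121%) and on the right (0.00805%), and females over males on the left (0.0564%) and on the right (0.0523%). On the right, 9 of 10 genes were lower in inverted-looping than in rightward-looping mutants, with a median log2 of -0.09 against -0.0113 over all genes. *Bnip3* at -0.21 and *Pdk1* at -0.20 had the largest differences there. In the same comparison 7 of 8 heart tube muscle markers (median 0.50) and 7 of 7 yolk sac visceral endoderm markers (0.71) were above 0. All 6 blood markers (-0.39) and all 4 neural tube markers (-0.55) were below 0. None of these was called, and their part in the members' values was not tested. *Pgk1* in the right fields was at 496.3 to 555.0 CPM in inverted-looping mutants and at 572.1 to 729.1 CPM in wild types, with no overlap. *Pdk1* did not overlap there either (188.0 to 210.5 against 211.5 to 274.4 CPM), the other 8 genes did, and 1.27% of 24859 genes were without overlap. On the left, 0 of 10 genes were without overlap (1.05% of all). Levels of those 2 groups were not tested against each other. In the left fields, 8 of 10 genes were higher in inverted-looping than in rightward-looping mutants with a median of 0.04, against 0.00941 over all genes. *Pgk1* lies on the X chromosome, and its log2 female over male was 0.02 on the left (95% interval -0.10 to 0.15) and -0.03 on the right (-0.16 to 0.10). The largest difference between the sexes was for *Slc16a3* on the left, 0.19 (SE 0.08, edgeR adjusted p = 0.674), and 0.12 without embryo 8_1. Between the sexes on the left, 8 of 8 heart tube muscle markers (median 0.50) and 6 of 6 blood markers (0.24) were above 0. All 4 neural tube markers were below 0 (-0.44). None of these was called, and their part in the *Slc16a3* value was not tested.

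The other genes of the same pathways were taken as lists, to be read against the 2.04% of all 22960 genes called in the right/left of inverted-looping mutants. Among 18 further glycolytic enzymes and carriers, 1 was called higher and 0 lower on the right of inverted-looping mutants, with a median log2 of -0.05. Among 25 other hypoxia-responsive genes 0 were called (median -0.04), and among 9 genes of oxygen sensing and HIF 0 were called (median 0.08). *Hif1a*, the oxygen-regulated subunit of HIF-1, was at 258.5 to 363.6 CPM. Of 8 genes that govern the entry of pyruvate to mitochondria or its first use there, 1 was called higher on the right (median 0.10). In wild types and in rightward-looping mutants none of the 4 lists had a call in right/left, and none had one in a level comparison.

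The glycolytic gene called was *Hk1*, the broadly expressed hexokinase and a relative of *Hk2*. In embryos 10_3, 18_2, 2_7, 32_2 and 4_6, *Hk1* was at 41.2, 35.0, 47.0, 38.8 and 37.9 CPM on the left and at 57.5, 67.1, 60.2, 80.9 and 94.6 CPM on the right. Every right field was above every left field. The log2 right/left was 0.84 (SE 0.13, edgeR adjusted p = 0.0211), higher in 5 of 5 embryos. In wild types the left was at 54.5 ± 9.82 and the right at 42.9 ± 3.48 CPM (SD, n = 5), a log2 right/left of -0.34, and in rightward-looping mutants it was -0.18. The difference in right/left passed from rightward-looping mutants (1.0, SE 0.15, edgeR adjusted p = 0.00241) and from wild types (1.16, SE 0.18, edgeR adjusted p = 0.00513). With males alone these were 1.08 and 1.18 with adjusted p of 0.0702 and 0.0833. Without wild-type embryos 7_1 and 8_1 the difference from wild types was 1.04 with an edgeR adjusted p of 0.107. The right/left of inverted-looping mutants was 0.80, 0.78 and 0.72 without embryo 18_2, 32_2 or 4_6, with edgeR adjusted p of 0.0857, 0.116 and 0.0543. The called markers of heart tube muscle (6 of 8) and sinus venosus (3 of 5), *Mef2c*, *Fos* and *Jun* rose on the same side and *Pax6* fell, as given above. Their part in the *Hk1* values was not tested.

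**Figure D5:**
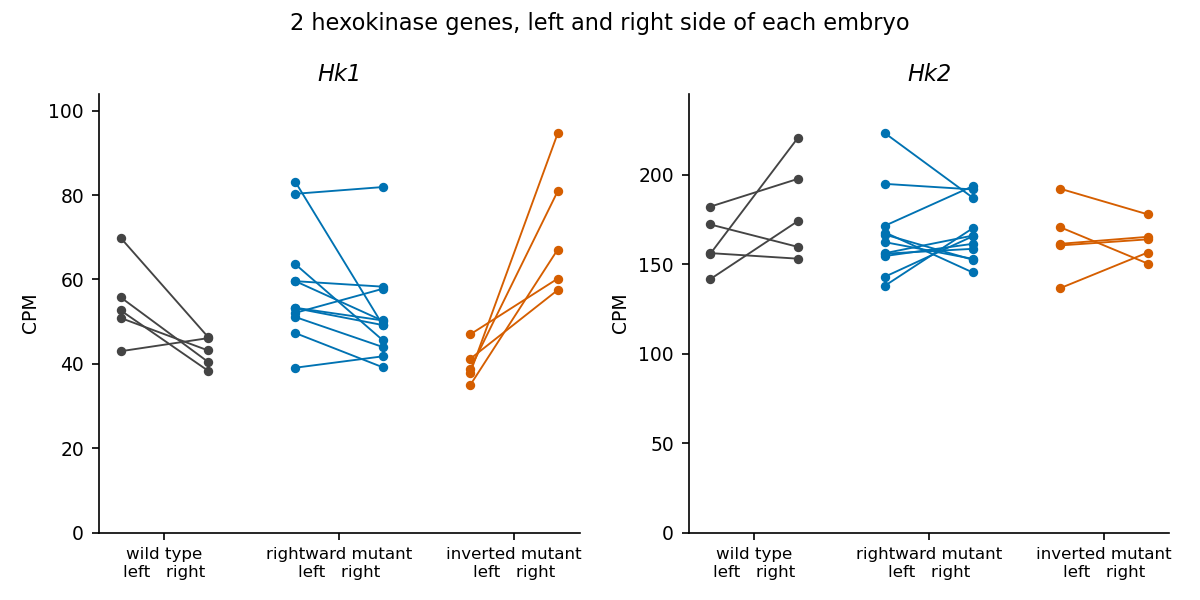
*Hk1* and *Hk2* levels (CPM) in the left and right field of each embryo, by group. Lines join both sides of 1 embryo. In the 5 inverted-looping mutants *Hk1* was at 35.0 to 47.0 CPM on the left and 57.5 to 94.6 CPM on the right, while *Hk2* was at 136.7 to 192.3 CPM on the left and 150.5 to 178.0 CPM on the right.

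The pyruvate gene called was *Pdk4*, a kinase of the same family as *Pdk1* that is known from fasting and from heart and skeletal muscle. Its level was low, 0.25 to 0.417 CPM on the left and 0.656 to 1.28 CPM on the right of inverted-looping mutants, with the right higher in 5 of 5. The log2 right/left was 1.40 (SE 0.26, edgeR adjusted p = 0.0365). The call was lost without any one of embryos 10_3, 18_2, 32_2 and 4_6 (log2 1.30 to 1.45) and with males alone (1.53, edgeR adjusted p = 0.206). The difference from the other groups did not pass (1.54, adjusted p = 0.211 from rightward-looping mutants, and 1.55, adjusted p = 0.225 from wild types, both edgeR). The same markers moved beside *Pdk4*, and their part was not tested there either.

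Finally, the 10 genes were compared with each other over embryos, each embryo given by the mean log2 CPM of its 2 libraries. Of the 45 pairs, 24 correlated with an adjusted p under 0.05, all positively, and the median r of all pairs was 0.49. Within the 11 rightward-looping mutants 22 pairs passed, and without the 2 embryos farthest from the median 16 did. *Aldoa* with *Ldha* had r = 0.88 (permutation p = 1e-05, the smallest possible, rho = 0.88), which was 0.90 without those 2 embryos and 0.89 in the rightward-looping mutants. *Pgk1* with *Ldha* also had r = 0.88 (rho = 0.85), which was 0.84 and 0.93 in the same subsets. *Vegfa* entered no pair that passed and *Eno1* entered 1. All genes of a library share its depth, scaling and cell makeup.

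The 2 sides of an embryo were compared in the same way. The left level of a gene correlated with its own right level over 21 embryos only for *Bnip3* among the 10 (Pearson's r = 0.67, permutation p = 0.00092, adjusted p = 0.0092, while Spearman's rho was 0.53 with an adjusted permutation p of 0.142). It was 0.53 without the 2 farthest embryos and 0.65 within the rightward-looping mutants. The other 9 genes had r from -0.16 to 0.36 and did not pass.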

How the data were processed

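Total RNA (10 ng) of the left and right heart field of each embryo was made into libraries of its poly(A) fraction with a low-input kit and sequenced on a NovaSeq. Per the labels and the methods of the study, the authors trimmed adapters, removed duplicates, aligned reads with STAR to GRCm39 and counted them per gene with featureCounts (Subread 2.0.6). The deposited values are raw counts per gene. The strand setting and the handling of reads in overlapping genes are not given in the sources used here. *Slc16a3* and *Aldoa* overlap other genes and antisense RNAs lie at *Slc2a1*, *Hk2* and *Bnip3*, so their counts may hold reads of those. Gene names came from the GENCODE annotation of GRCm39 and matched 56310 of 56953 identifiers.

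From the counts, edgeR 4.0.16 (R 4.3.3, limma 3.58.1) was run with TMM scaling, filterByExpr with a minimum count of 5, quasi-likelihood tests and Benjamini-Hochberg adjustment over all genes tested, called at adjusted p under 0.05. For right/left, embryo was a block since the paired libraries are of 1 animal, and differences between groups used the interaction of side and group over 42 libraries. Levels used group and sex over the 21 libraries of a side. Groups came from genotype and looping direction in the labels. CPM used TMM-scaled library sizes. Right/left per embryo used a prior count of 2 and was tested by exact sign flips or exact permutation of embryos. Correlations used 100000 permutations (SciPy 1.17.1). Alternatives were DESeq2 1.42.0, other filters, no block, no sex term, males alone, all 42 libraries in a fit, leaving out each embryo and, added after seeing the data, leaving out wild types 7_1 and 8_1 together. The fits were tested on simulated data. All 10 genes were named, with up to 5 called genes per marker or pathway list in a comparison by absolute log2 value, and the 10 genes most like the members. The members and lists were chosen with earlier results of these data known.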

Additional observations from a re-analysis of the deposited data

Results flagged for a closer look

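Of the 60 groups of 4 to 10 values examined for a sample far from the rest, 5 held one, and chance alone gives about 1 in 20. Both level values in wild types were in the right field of embryo 10_1, at 1217.6 CPM for *Slc2a1* and 4476.2 CPM for *Eno1*. The same embryo had the log2 right/left of *Ldha* that stood apart from the other wild types, 0.67. In inverted-looping mutants, *Slc16a3* in the right field of embryo 2_7 was apart at 569.0 CPM, and the log2 right/left of *Eno1* in embryo 4_6 was apart at 0.06. *Hk1* was the pathway gene whose right/left differed between groups by a test of the difference, by 1.0 from rightward-looping mutants and by 1.16 from wild types (log2, higher in inverted-looping mutants).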

How the results depend on the processing

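No member changed direction under any alternative among those whose 95% interval left out 0, and the number of members called stayed at 0 with 2 exceptions. Without wild-type embryo 22_4 the difference between inverted-looping mutants and wild types gave 1 call (*Pgk1*), against 0 without any other embryo. DESeq2 gave 1 call for the left level of rightward-looping mutants over wild types (*Slc2a1*). Leaving out wild types 7_1 and 8_1 gave 0 members called throughout and 3 genes of all that differed between inverted-looping mutants and wild types. Without the replicate block, 0 members were called in each of the 6 comparisons of sides. Counts over all genes moved more. For right/left in inverted-looping mutants the 468 calls became 1755 with DESeq2, 305 without the block, 141 with all 42 libraries in 1 fit, 53 with males alone, 942 with no filter and 138 to 446 without 1 embryo. The 135 calls that differed from wild types became 885 with DESeq2, 7 without the block, 3 with males alone, 207 with no filter and 17 to 641 without 1 embryo. The 82 that differed from rightward-looping mutants became 426, 17, 7, 131 and 18 to 192. The 24 pairs of correlated members were 22 in rightward-looping mutants and 16 without the 2 farthest embryos, and the median r of all pairs was 0.43 to 0.55 without 1 embryo, an alternative chosen after seeing the data. A prior count of 0.5 left 0 adjusted calls in both tests over embryos. The cause was not tested. Depth limits *Vegfa*, at 57 to 202 counts.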

Other observations

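Over the 42 libraries, the genes whose log2 CPM were most like the mean of the 10 members were led by other glycolytic enzymes. Of 11463 genes with a mean of at least 200 counts, the 10 with the highest Pearson's r were *Tpi1* (0.89), *Pkm* (0.87), *Gpi1* (0.85), *Pgam1* (0.83), *Galk1* (0.83), *Grhpr* (0.83), *Prelid2* (0.82), *Ak4* (0.82), *Fam162a* (0.82) and *Higd1a* (0.79), against a median of 0.01 over all genes and a 99th percentile of 0.59. These are descriptions over libraries that share embryos, depth and tissue makeup. The members themselves differed in how closely they followed the mean of the other 9, from r = 0.90 for *Aldoa* and 0.86 for *Pdk1* to 0.52 for *Eno1*, 0.34 for *Slc2a1* and -0.09 for *Vegfa*.

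*Eno1b*, a near-identical copy of *Eno1*, was at 287.5 to 322.1 CPM in the 4 libraries of wild-type embryos 7_1 and 8_1 and at 22.9 to 40.5 CPM in the other 38. *Eno1* in those 4 libraries was at 3193.0 to 3570.9 CPM, and *Eno1b* was at most 9.08% of it. How reads that fit both copies were counted is not given in the sources used here, so the *Eno1* level is uncertain, by an amount that was not measured. Why these 2 embryos differ from the rest was not tested.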
